A study of Mus musculus with 11 samples.

Results

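The PYHIN genes of mouse chromosome 1 encode a family of proteins built from a pyrin domain, a DNA-binding HIN domain or both, and 9 of them are described here in macrophages given a microRNA-150 (miR-150) mimic. The 9 members, Pydc3, Pydc4, Ifi203, Ifi204, Ifi205, Mnda, Mndal, Aim2 and Pyhin1, were chosen by gene name from the 31936 genes of the expression table, with earlier results of these data known. RNA sequencing covered 5 libraries of cells given a negative control and 6 libraries of cells given the mimic, a synthetic RNA meant to act as additional microRNA. Both groups were peritoneal macrophages of female mice, elicited with thioglycollate, an irritant that draws inflammatory macrophages into the abdominal cavity. Mouse strain, age, the dose and duration of treatment, and whether replicates are different animals or cultures are not given in the labels. P-values therefore measure the spread between these libraries, which may be technical. Control replicate 5 was not analysed here.

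The HIN domain of PYHIN proteins binds DNA, and the pyrin domain binds other pyrin domains, such as that of the adaptor ASC (gene Pycard). AIM2 is the best-known case: on meeting DNA in the cytosol it assembles an inflammasome with ASC and caspase-1, which matures interleukin-1β and interleukin-18 and opens gasdermin D pores. Most members of the family are known as interferon-inducible genes of the macrophage, and the mouse cluster has grown by local gene duplication, so many of its genes are near copies of each other.

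The libraries held 18538509 to 22668862 reads assigned to genes in the control group and 20313901 to 25473814 in the mimic group. The 12 macrophage markers listed summed to 17043 to 22122 CPM (reads relative to the scaled total of a library) in every library, against 0.964 to 1.58 for the 8 T and NK cell markers and 2.18 to 4.80 for the 6 B cell markers. The 9 granulocyte markers summed to 157 to 173 CPM in controls and 142 to 160 CPM with the mimic. Most of this was Csf3r, which averaged 117 and 115 CPM and did not pass the test (limma adjusted p = 0.687). The other 2 of the 3 tested genes, S100a8 and Siglecf, were called lower. Of S100a9, Ly6g, Mpo, Elane, Epx and Prg2 the highest was Epx, averaging 0.090 CPM in controls and 0.071 CPM with the mimic. The 7 mesothelial and fibroblast markers summed to 26.4 to 36.0 CPM in controls and 17.2 to 37.4 CPM with the mimic, with none of 7 called. The part of these cells in the results was not tested. Of the macrophage markers 2 were called higher with the mimic (Fcgr1 and Adgre1) and 3 lower (Cd14, Lyz2 and Tyrobp). In bulk RNA, fewer cells of a type and less RNA per cell cannot be told apart. The mimic libraries fell on both sides of the leading axis of within-group variation over 12969 genes. Replicates 3, 4 and 6 scored -8.33, -18.4 and -16.44, whereas replicates 1, 2 and 5 scored 24.87, 9.7 and 8.6 and the controls lay between -2.23 and 2.16. Replicate 1 lay farthest out and was the lowest mimic library in 6 of the 9 members. Aim2 and Ifi205 are also given without replicates 3, 4 and 6 and without replicate 1.

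The members lie between 173350879 and 174031810 on chromosome 1 (GRCm38, GENCODE M21 annotation), a span of 681 kilobases that opens with Aim2 and closes with Ifi205. The table names several of them by older symbols: its Pydc3, Pydc4, Mnda and Pyhin1 are Ifi208, Ifi213, Ifi211 and Ifi209 in that annotation. Promoter windows in RefSeq (GRCm38.p6, 250 bases before to 50 after a transcript start) matched 8 of the 9 members, Ifi204 having no entry. They were searched on both strands for GAAANNGAAA, the core of the interferon-stimulated response element, and for TTCNNNGAA, the gamma-activated site. The letters of the response element core occur before the start in 6 of the 8 members (Pydc3, Pydc4, Ifi203, Ifi205, Mnda and Mndal) and in 2.98% of all 32851 RefSeq windows. Near copies share their flanks, so these matches are not independent of each other.

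The stretches below show the matches before a start that lie outside annotated exons. Each is read along the gene's strand from 5′ to 3′, with the 10 letters of the core in capitals and 10 bases on either side, and BC094916, AI607873 and Gm4955 are PYHIN genes outside the 9 members. Pyhin1 has no match, and its line gives the stretch that aligns with that of BC094916, with the aligned letters in capitals. Distances count from the RefSeq start. For Pydc3, Pyhin1 and AI607873 the bases after that start were not found near the beginning of a GENCODE transcript of the gene. The start of Gm4955 was not checked.
Pydc3, 58 bases before the start, chr1:173673597-173673626, plus strand: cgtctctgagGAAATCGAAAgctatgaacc
Pydc4, 73 bases before the start, chr1:173599326-173599355, minus strand: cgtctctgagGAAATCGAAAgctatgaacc
Gm4955, 40 bases before the start, chr1:173491339-173491368, minus strand: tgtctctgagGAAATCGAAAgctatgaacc
BC094916, 79 bases before the start, chr1:173536017-173536046, minus strand: agtctctgagGAAATCGAAAgcgatgcact
Pyhin1, 79 bases before the start, chr1:173630770-173630799, plus strand: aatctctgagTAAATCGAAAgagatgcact
Ifi203, 35 bases before the start, chr1:173942508-173942537, minus strand: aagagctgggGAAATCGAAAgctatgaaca
AI607873, 41 bases before the start, chr1:173741831-173741860, minus strand: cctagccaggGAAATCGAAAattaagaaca
Mnda, 37 bases before the start, chr1:173913064-173913093, minus strand: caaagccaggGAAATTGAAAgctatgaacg
Ifi205, 134 bases before the start, chr1:174031870-174031899, minus strand: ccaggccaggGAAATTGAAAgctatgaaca

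Counting from 1 at the 5′ end of the core, Pyhin1 differs from BC094916 by G1T. Ifi203 has a match in the window of only 1 of its 2 listed starts. Mndal has a match before each of its 2 listed starts, both inside annotated exons and not printed. The first has the same letters as that of Ifi203, and the other, on the opposite strand, has a different core and flanks. No member window holds the gamma-activated site, which occurs in 8.3% of all windows, and neither motif is in the Aim2 window. A match is a description of these letters and not of a bound site.

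With the mimic, all 9 members were higher. Calls were made where the adjusted p fell below 0.05 in a limma fit over all 12969 genes that passed a filter on low values, with Benjamini-Hochberg adjustment. The 9 members passed that filter and 9 of 9 were called higher, where 15.4% of all genes tested were called higher and 14.6% lower. Pydc3 would not have passed on its controls alone. Its control replicates 1 and 2 lay at -1.19 and -1.44 log2 CPM, below the limit of -1. The median log2 fold change of the 9 members was 1.83, beside 0.0007 over all genes tested. In each of the 9, the 6 mimic libraries lay above all 5 controls, which gives the smallest p this design allows in a two-sided exact permutation test over libraries (p = 0.00216). Genes that changed little could separate as fully, such as Adgre1 and Ly9, with log2 fold changes of 0.18 and 0.29. The share of all genes tested without overlap was not counted, so this separation is not read as particular to the members. The rises ran from 1.29-fold in Aim2 to 10.7-fold in Pydc3, and 8 of the 9 members stood among the 149 genes that rose by at least 1 log2 unit. The log2 fold changes of the members in the authors' deposited table run from 0.37 for Aim2 to 3.42 for Pydc3, and the largest adjusted p that table gives a member is 0.000674, for Aim2.

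**Figure D1:**
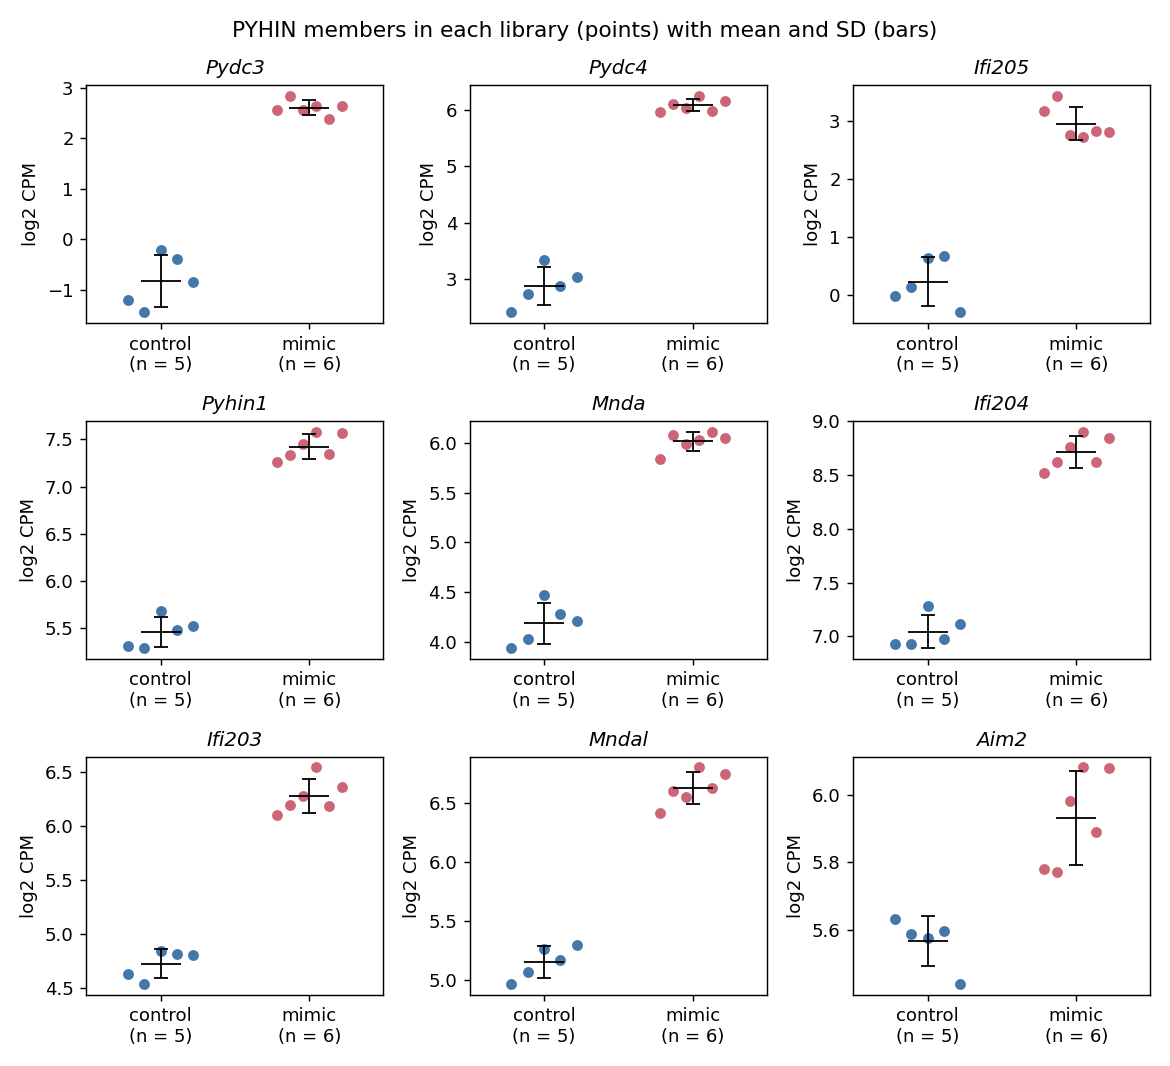
Log2 CPM (vertical axes, each panel on its own scale) of the 9 members in the 5 control and 6 mimic libraries, ordered by the size of the response, with points for libraries and bars for the mean and SD. The groups do not overlap in any panel, and the gap is narrowest in Aim2. The share of all genes tested without overlap was not counted.

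The pyrin-domain genes Pydc3 and Pydc4, whose symbols stand for "pyrin domain containing", were low in control cells and changed most. Pydc3 measured 0.415, 0.345, 0.840, 0.739 and 0.528 CPM in control replicates 1, 2, 3, 4 and 6, and from 5.22 through a median of 6.05 to 7.17 CPM with the mimic. These are few reads, 59 in all controls together and 854 in the mimic libraries, yet the lowest mimic library stood well above the highest control. On the log2 scale the controls averaged -0.82 ± 0.52 (SD, n = 5) and the mimic libraries 2.61 ± 0.15 (SD, n = 6) (log2 fold change 3.42 ± 0.19, SE; limma adjusted p = 5.23e-10). It ranked 8 among all rises.

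Pydc4 measured 5.31, 6.60, 10.0, 7.28 and 8.19 CPM in the controls and 62.5, 67.5 and 76.2 CPM at the lowest, median and highest mimic library. The control libraries spread more widely, in proportion, than the mimic libraries. The gene was 9.27-fold higher (log2 fold change 3.21 ± 0.12, SE; limma adjusted p = 1.50e-10), and ranked 10 among all rises. Pydc3 and Pydc4 are near copies: 99.15% of 235 aligned bases upstream of their starts are identical, and 20.8% of the 50-base runs in Pydc3 transcripts also occur in other genes, chiefly Pydc4. How reads from such shared runs were assigned is not given in the sources used here, so the division of reads between these genes is uncertain.

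Ifi205, whose protein p205 has been studied as a regulator of ASC expression in macrophages, rose most after Pydc3 and Pydc4. It measured 0.969, 1.08, 1.55, 1.58 and 0.792 CPM in the controls and 6.62, 7.05 and 10.8 CPM at the lowest, median and highest mimic library. Mimic replicates 1 and 2, at 9.03 and 10.8 CPM, were the highest, and the other mimic libraries lay between 6.62 and 7.08. The log2 CPM rose from 0.24 ± 0.42 (SD, n = 5) to 2.96 ± 0.29 (SD, n = 6) (log2 fold change 2.72 ± 0.18, SE; limma adjusted p = 8.15e-09). The log2 fold change was 2.91 without mimic replicates 3, 4 and 6, and 2.68 without replicate 1. Its transcripts share 18.6% of their 50-base runs and 15.0% of their 100-base runs with other genes, nearly all with the more abundant Mnda. The few reads of Ifi205 are therefore uncertain on this account too.

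Pyhin1, named for the family itself, measured 39.8, 39.1, 51.4, 44.7 and 45.9 CPM in the controls. The mimic libraries ran from 153 through a median of 169 to 192 CPM, so even the lowest was far above every control. It was 3.90-fold higher (log2 fold change 1.96 ± 0.074, SE; limma adjusted p = 1.07e-11), the smallest adjusted p of the 9 members. Its transcripts share 33.8% of their 50-base runs with other genes, nearly all with BC094916.

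Mnda, which shares its name with the human myeloid cell nuclear differentiation antigen, measured 15.3, 16.3, 22.1, 19.4 and 18.5 CPM in the controls and 57.2, 65.9 and 69.1 CPM at the lowest, median and highest mimic library. The groups were widely separated and the mimic libraries lay close together. The gene was 3.56-fold higher (log2 fold change 1.83 ± 0.080, SE; limma adjusted p = 4.42e-11). Mnda is the member whose own reads are least certain, since 72.8% of its 50-base runs and 56.9% of its 100-base runs also occur in other genes, most often in Ifi205. The far more abundant Ifi204 also shares runs with Mnda, at 14.8% of the 50-base runs of Ifi204.

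Ifi204 encodes p204, a nuclear and cytosolic DNA sensor often set beside human IFI16, and was the most abundant member in both groups. It measured 122, 122, 156, 126 and 139 CPM in the controls and 368, 414 and 479 CPM at the lowest, median and highest mimic library. Control replicate 3 was the highest control here, as in 6 of the 9 members, and was still far below every mimic library. Ifi204 was 3.18-fold higher (log2 fold change 1.67 ± 0.075, SE; limma adjusted p = 1.20e-10).

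Ifi203 measured 24.7, 23.3, 28.7, 28.2 and 27.9 CPM in the controls and 68.9, 75.6 and 93.4 CPM at the lowest, median and highest mimic library. Mndal, whose symbol stands for Mnda-like, measured 31.3, 33.4, 38.4, 35.9 and 39.2 CPM in the controls and 85.3, 97.8 and 111 CPM at the lowest, median and highest mimic library. Both genes rose, with no overlap between groups. Ifi203 was 2.93-fold higher (log2 fold change 1.55 ± 0.075, SE; limma adjusted p = 1.51e-10) and Mndal 2.77-fold higher (1.47 ± 0.070, SE; limma adjusted p = 1.12e-10). The annotated gene bodies of this pair overlap on the same strand, with 155 exonic bases of Mndal (4.27%) and 37 of Ifi203 (0.552%) lying in exons of another gene. Of the 50-base runs of Mndal transcripts, 19.55% also occur in other genes, most often in Mnda.

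Aim2, the DNA sensor of the AIM2 inflammasome, moved least. It measured 49.6, 48.1, 47.7, 48.4 and 43.4 CPM in the controls. The mimic libraries measured 54.9, 54.7, 63.1, 67.7, 59.2 and 67.6 CPM in replicates 1 to 6, and all were above every control, the lowest by a small margin. On the log2 scale the controls averaged 5.57 ± 0.073 (SD, n = 5) and the mimic libraries 5.93 ± 0.14 (SD, n = 6). The rise was 1.29-fold (log2 fold change 0.36 ± 0.062, SE; limma adjusted p = 0.00051). The 3 highest mimic values were those of replicates 3, 4 and 6, and without them the log2 fold change was 0.25 (limma adjusted p = 0.000498). Without replicate 1 it was 0.39. Aim2 shares only 0.628% of its 50-base runs with other genes and no 100-base run, so its reads are the most clearly its own among the members.

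Whether members responded by different amounts was tested on the difference itself, by the same exact permutation test on the per-library difference of their log2 CPM, over 36 pairs with Benjamini-Hochberg adjustment. Of these pairs 31 differed. Aim2 rose less than each of the other 8 members, by 1.11 log2 units against Mndal and 3.06 against Pydc3 (exact permutation, adjusted p = 0.003 for each of the 8, n = 5 and 6). Pydc3, Pydc4 and Ifi205 each rose more than the remaining 6 members, the smallest of these differences being 0.76 between Ifi205 and Pyhin1 (exact permutation, adjusted p = 0.0107).

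In 5 pairs the difference did not pass the test. Pydc3 exceeded Pydc4 by 0.21 (exact permutation, adjusted p = 0.208) and Pydc4 exceeded Ifi205 by 0.49 (exact permutation, adjusted p = 0.0756). Ifi203 exceeded Mndal by 0.083 (exact permutation, adjusted p = 0.118). Mnda lay below Pyhin1, with a difference of -0.13 (exact permutation, adjusted p = 0.0848), and Ifi204 below Mnda, with a difference of -0.16 (exact permutation, adjusted p = 0.0706). A miss does not show that the responses of a pair were equal.

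**Figure D2:**
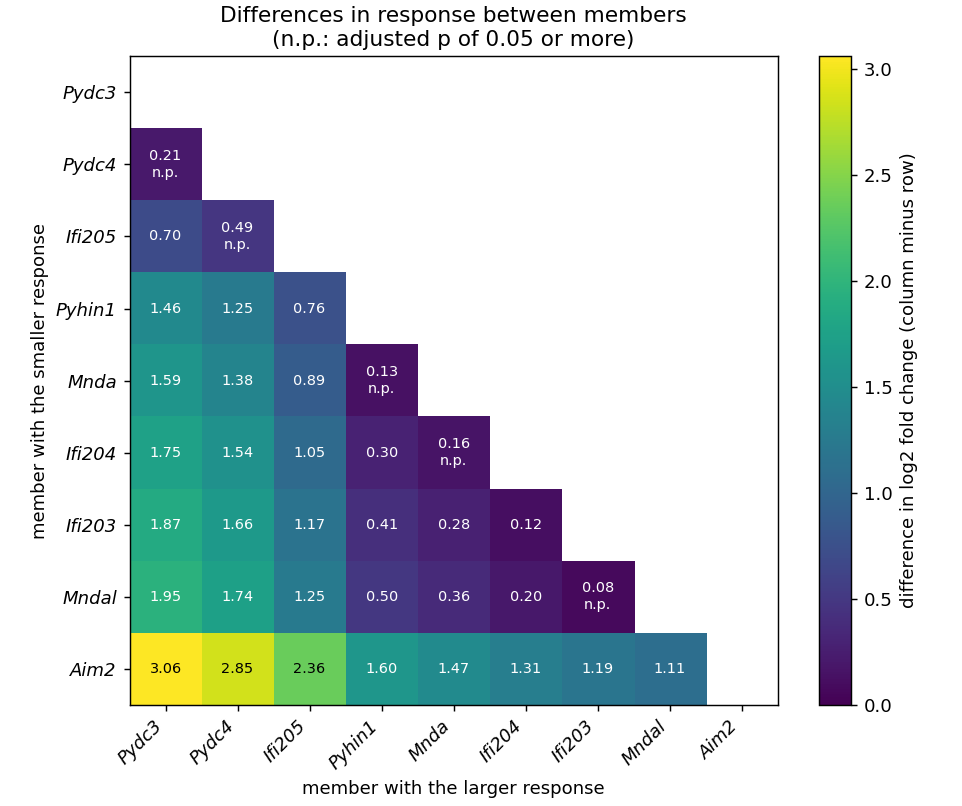
Difference in log2 fold change between each of the 36 pairs of members, the column gene minus the row gene, with n.p. marking the 5 pairs that did not pass the adjusted threshold of 0.05. The bottom row, Aim2, holds differences from 1.11 to 3.06, and the cells between Pyhin1, Mnda, Ifi204, Ifi203 and Mndal are all 0.50 or less.

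Aim2 held a different place among the members in each group. Levels of different genes were compared as CPM per kilobase of exon. In control cells Ifi204 led, averaging 37.2 ± 4.09 (SD, n = 5). Aim2 followed at 13.5, Pyhin1 at 12.5, Mnda at 10.3 and Mndal at 9.82, and neighbours among these 4 overlapped between libraries. Ifi203 at 3.96, Pydc4 at 1.09, Ifi205 at 0.286 and Pydc3 at 0.109 came after, with no overlap between neighbours.

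With the mimic Ifi204 still led, at 118.5 ± 12.1 (SD, n = 6), followed by Pyhin1 at 48.6, Mnda at 36.3 and Mndal at 27.2, and then by Aim2 at 17.5. Ifi203 at 11.7 and Pydc4 at 9.97 overlapped, and Ifi205 at 1.89 and Pydc3 at 1.16 remained lowest. With the length of the longest transcript in place of all exons, Mndal stood above Aim2 in controls, and Pydc4 above Aim2 with the mimic.

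**Figure D3:**
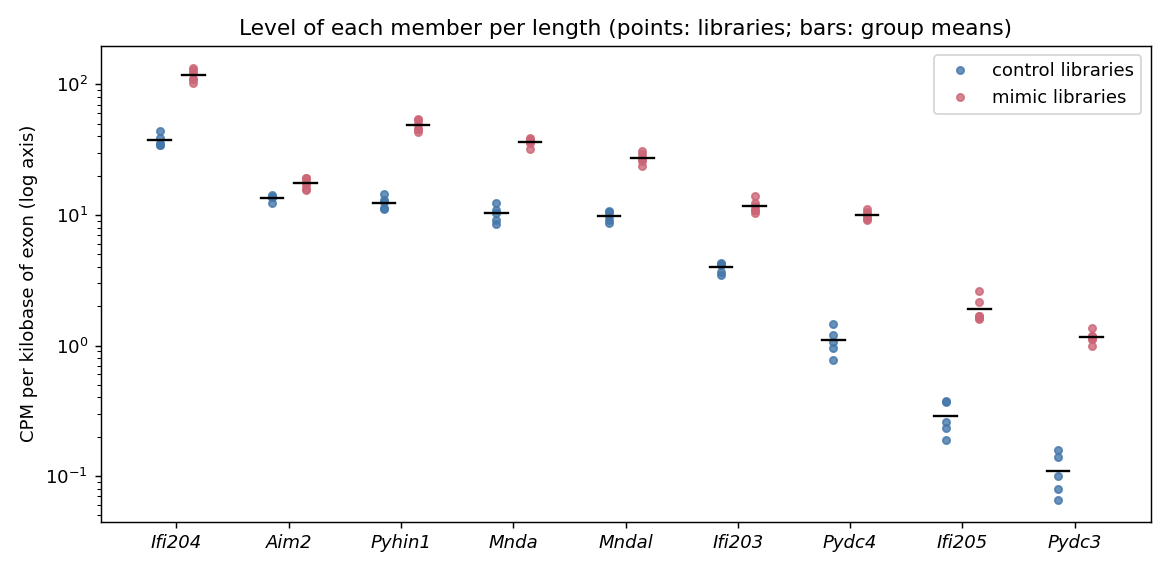
CPM per kilobase of exon (log axis) of the 9 members in control and mimic libraries, ordered by the control mean, with points for libraries and bars for group means. Aim2 stands next to Ifi204 in control cells at 13.5 and behind Pyhin1, Mnda and Mndal with the mimic at 17.5, while the levels span from 0.109 for Pydc3 to 118.5 for Ifi204.

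Summed over the 9 members, the control libraries held 314 ± 27.7 CPM (SD, n = 5; 289 to 356) and the mimic libraries 979 ± 86.8 CPM (SD, n = 6; 864 to 1098). The summed level was 3.12-fold higher. Within the level summed per kilobase, Aim2 made up 15.4 ± 1.78% in controls and 6.41 ± 0.23% with the mimic. Ifi204 made up 41.9% and 43.4%, Pyhin1 14.0% and 17.8%, and Pydc4 1.22% and 3.66%. These shares describe the mixture of transcripts and were not tested.

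The table measures 4 further PYHIN genes of the cluster, and 3 of the 4 passed the filter, all 3 called higher. BC094916 passed only through the mimic libraries, since its highest control lay at -1.25 log2 CPM, below the limit of -1. With such controls it could not have been tested without a rise, so its call adds no support. Gm4955 (Ifi206 in the annotation) measured 1.71, 2.66, 3.67, 2.22 and 2.96 CPM in the controls and 30.5, 33.9 and 35.7 CPM at the lowest, median and highest mimic library. It was 13.0-fold higher (log2 fold change 3.70 ± 0.14, SE; limma adjusted p = 8.85e-11), ranking 5 among all rises. BC094916 (Ifi214), with 19 reads in the controls together and 161 in the mimic libraries, changed by 2.70 ± 0.31 on the log2 scale (SE; limma adjusted p = 6.77e-06). Of its 50-base runs 14.6% also occur in other genes, nearly all in the far more abundant Pyhin1, so its few reads are uncertain.

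AI607873 (Ifi207) was abundant already in control cells, at 158 to 186 CPM, and reached 269 to 367 CPM with the mimic (log2 fold change 0.94 ± 0.082, SE; limma adjusted p = 6.39e-07). Ifi202b, which encodes a PYHIN protein without a pyrin domain that is known to hold back AIM2, had 4 reads in the controls together and 5 in the mimic libraries. It was too low to test in the fit (exact permutation p = 0.855), and a fall or a small rise would not have been detectable at this depth.

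Genes that share upstream sequence can be set side by side. Pydc3, Pydc4 and Gm4955, with at least 98.62% identity over their aligned upstream bases, had log2 fold changes of 3.42, 3.21 and 3.70. Ifi203 and Mndal, with 97.49% identity over 239 bases, had 1.55 and 1.47. Pyhin1 and BC094916, with 95.18% identity over 249 bases and the G1T difference in the printed stretch, had 1.96 and 2.70. The value of BC094916 rests on 19 control reads, with an SE of 0.31. Mnda lay at 1.83, but its relatives Ifi205 (93.38% over 151 bases) and AI607873 (87.8% over 246 bases) lay at 2.72 and 0.94. These are descriptions of related genes, which also share transcript sequence, and no test was made of them.

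Along the chromosome, every gene of the interval with enough reads to test was a PYHIN gene or a PYHIN pseudogene, and all were called higher. BC094916 had enough reads only in the mimic libraries. Within 500 kilobases of the outermost members, the table holds 40 genes, of which 13 are PYHIN genes and 20 are olfactory receptor genes with at most 20 reads each over all 11 libraries. Of the 27 genes outside the family only the pseudogene Gm16340 (Ifi203-ps) could be tested, and it rose by 2.13 ± 0.20 on the log2 scale (SE; limma adjusted p = 7.31e-07). Gm16340 had 317 reads over all libraries, averaging 0.43 CPM in controls and 1.94 CPM with the mimic. Of the 50-base runs of Ifi203 transcripts, 8.85% also occur in it, so the division of reads between these genes is uncertain. The nearest tested genes beyond lay far off and were lower with the mimic: Dusp23, 718 kilobases before Aim2, at -0.47 ± 0.12, and Fh1, 1569 kilobases after Ifi205, at -0.19 ± 0.053 (SE; limma adjusted p = 0.0119 and 0.0156). Of 11 tested genes on a list of the wider chromosomal neighbourhood, 3 were called higher (Slamf9, Ly9 and Igsf9) and 2 lower (Pea15a and Dusp23). These are few genes to set beside the 15.4% called higher and 14.6% called lower of all genes tested. Slamf9 was at 0.76, Ly9 at 0.29 and Pea15a at -0.24 (limma adjusted p = 5.56e-06, 5.96e-05 and 0.00373).

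**Figure D4:**
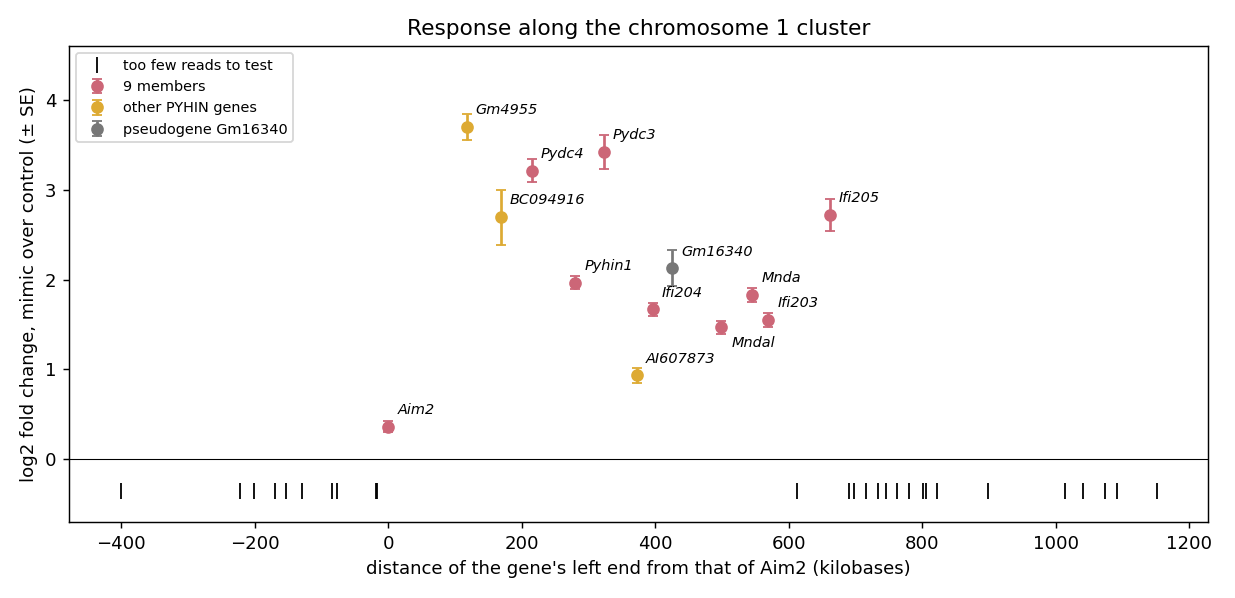
Log2 fold change with its SE (vertical axis) against the distance of each gene's left end on the chromosome from that of Aim2 in kilobases, for the 9 members, the other tested PYHIN genes and the pseudogene Gm16340, with ticks for genes with too few reads to test. Every tested gene of the cluster lies above 0, from 0.36 in Aim2 to 3.70 in Gm4955, and BC094916 could be tested only through its mimic libraries.

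Some genes that act with AIM2 rose and others did not pass the test. Of 21 tested inflammasome and pyroptosis genes 12 (Casp1 and Gsdmd among them) were called higher and 2 lower (Ninj1 and Card19), beside 15.4% and 14.6% of all genes tested. Their median was 0.19 on the log2 scale. Casp4, an inflammatory caspase of the non-canonical pathway, rose by 0.64 ± 0.048, Casp1 by 0.40 ± 0.038, Casp8 by 0.31 ± 0.042 and Gsdmd, the pore-forming gasdermin, by 0.31 ± 0.046 (SE; limma adjusted p = 3.11e-08, 7.43e-07, 4.39e-05 and 0.000138). Il18 rose by 0.30 ± 0.11 (SE; limma adjusted p = 0.0492). The adaptor Pycard did not pass the test, at -0.12 ± 0.056, nor did Il1b, at -0.042 ± 0.33 (SE; limma adjusted p = 0.121 and 0.936).

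Of 21 tested genes of cytosolic DNA sensing 7 were called higher and 1 lower (Hmgb1), beside 15.4% and 14.6% of all genes tested, with a median of 0.15. Zbp1, a nucleic acid sensor that can start cell death, rose by 1.84 ± 0.13, Mb21d1, which encodes the DNA sensor cGAS, by 0.63 ± 0.074, and Samhd1, which degrades deoxynucleotides, by 0.52 ± 0.040 (SE; limma adjusted p = 2.73e-07, 9.32e-06 and 5.05e-08). Tmem173, which encodes STING, the adaptor that acts after cGAS, was at 0.029 ± 0.051 and did not pass (SE; limma adjusted p = 0.690).

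Of 18 interferon signalling genes 9 were called higher and 1 lower (Ifngr1), beside 15.4% and 14.6% of all genes tested, with a median of 0.10. Irf7 rose by 2.51 ± 0.12, Usp18, a brake on the interferon receptor, by 1.82 ± 0.093, and the transcription factor gene Stat2 by 1.56 ± 0.090 (SE; limma adjusted p = 5.31e-09, 1.19e-09 and 4.79e-09). Irf8, a macrophage lineage factor, was at -0.074 ± 0.057 and did not pass (SE; limma adjusted p = 0.342).

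Outside the family, the genes whose values over the 11 libraries were most like the mean standardised profile of the members were Slfn8 (Pearson r 0.999), Trim30a (0.998) and Gbp3 (0.998). All points share the contrast between the groups. With each group's mean removed, the most alike were Slfn8 (0.974), Ifit1 (0.952) and Mx1 (0.940). Within groups the members also varied with each other, with a median r of 0.61 over their 36 pairs and 30 pairs positive. The highest, 0.96, was between Ifi204 and Pyhin1, and the lowest, -0.28, between Ifi205 and Aim2. These values rest on 11 libraries that share depth and scaling and are given as descriptions.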

How the data were processed

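The submitters' processing notes name STAR, Subread, featureCounts and edgeR. Versions, genome build, strand setting and the handling of reads shared between genes are not given in the sources used here. Each library has a column of log2 CPM deposited by the authors. These values proved to be log2 of reads plus 0.5 over a scaled library total, and 100% of them gave back whole reads within 0.01 read. Fold changes are on that scale and understate the change of low genes. The authors' deposited table also holds their log2 fold changes, p-values with adjusted p-values, and 2 score columns (a moderated statistic and a log odds) that were not used here. The test behind the deposited p-values and score columns is not recorded.

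The first row of each gene was used. Genes were tested if their log2 CPM reached -1 in 5 or more libraries. The model was limma's (version 3.58.1, with statmod 1.5.0, R 4.3.3), with group as the only term, an intensity trend and robust moderation, adjusted by Benjamini-Hochberg over all 12969 genes. It was also run, after the main fit, on simulated libraries with a fixed noise level and no shared axis of variation. That run does not bear on the spread between the libraries here. Permutation tests enumerated all 462 assignments of libraries. Annotation, lengths and transcripts came from GENCODE M21 by gene identifier (31728 genes matched), and promoter sequence from RefSeq. These may differ from the versions the authors used.

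The members, lists and alternatives were chosen with earlier results of these data known. All members were named, and of each pathway list the 3 genes with the smallest p, with key genes such as Pycard and Casp1 whatever their values, except 1 gene that is not reported here. Gm16340, Ninj1, Card19, Hmgb1, Ifngr1, Igsf9, S100a8 and Siglecf were named after their values were seen. The encoded proteins were not compared here. All pairs of replicate libraries differed by more than sampling noise (chi-square per degree of freedom 2.41 to 39.55), and none was merged. Software was pandas 2.3.3, numpy 2.4.6 and matplotlib 3.10.9.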

Additional observations from a re-analysis of the deposited data

How the results depend on the processing

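The 9 members kept their direction and their call under all 22 alternatives, which changed the scaling, filter, pseudocount, model, threshold or libraries. Aim2 ranged most in proportion, from 0.25 to 0.39 on the log2 scale, with a largest limma adjusted p of 0.00419, and Pydc3 ranged from 3.26 to 3.57. The count of genes called over the whole table moved more: 1997 higher and 1895 lower became 1214 and 886 without mimic replicates 3, 4 and 6, and 967 and 792 at an adjusted p below 0.01. Leaving out each library in turn gave 1488 to 2693 higher and 1403 to 2506 lower, with 9 members called each time and 30 to 32 of the 36 pairs differing. Without mimic replicates 3, 4 and 6, 29 pairs differed. A voom fit called 2961 higher and 2660 lower. The cause of these shifts was not tested beyond the fewer libraries or stricter threshold that define them.

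Replicate numbers are shared between the groups. Over all genes, same-numbered libraries did not deviate together (correlations -0.061 to 0.062 over 5 numbers, 1 of 5 best with its own number). That measure cannot show whether they share a source for the members, which was not tested. With the replicate block, 1775 genes were called higher and 1793 lower, and 9 members were called higher. Against the same libraries without the block, the SE fell in Pyhin1 (0.079 to 0.055), Ifi203 (0.079 to 0.055) and Mndal (0.076 to 0.055). It also fell in Ifi204 (0.080 to 0.060), Pydc4 (0.133 to 0.102) and Mnda (0.084 to 0.070). The SE changed little in Pydc3 (0.202 to 0.201) and Ifi205 (0.191 to 0.192) and rose in Aim2 (0.066 to 0.071).

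Levels per kilobase depend on the length used: with the longest transcript, 6 of the 9 control levels moved by more than 1 SD. Depth limits Pydc3, Ifi205, BC094916 and Ifi202b. Shared sequence limits Mnda most, at 72.8% of its 50-base runs. It also limits the other members except Aim2, from 12.2% in Ifi203 to 33.8% in Pyhin1, as well as Gm4955 (25.6%) and BC094916 (14.6%).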
